A study of Mus musculus with 10 samples.

Results

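Gabra2, Gabra3, Gabra4 and Gabra5 encode alpha subunits of the GABA-A receptor, and their mRNA was measured in the nucleus accumbens (NAc), a ventral striatal region of the mouse brain. The 4 genes were taken by name as the alpha subunits of interest beside Gabra2, and all 4 were among the 29883 genes of the count table. The study compared 5 C57BL/6J (B6) with 5 DBA/2J (D2) mice, both inbred strains. All 10 were young adult ethanol-naive males without treatment or transgene, and each gave 1 poly-A RNA-seq library from dissected NAc. The values used here are raw read counts per gene. The genome to which both strains were aligned, GRCm39, is that of B6, and the effect of this on D2 counts was not tested.

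GABA-A receptors are pentameric chloride channels that carry most fast inhibition in the brain, typically built from alpha, beta and gamma or delta subunits. The alpha subunit lies at the GABA and the benzodiazepine binding interfaces, so its identity shapes kinetics, drug sensitivity and whether a receptor sits at synapses or outside them. In striatal projection neurons, which make up most NAc neurons, Gabra2 is a usual synaptic alpha subunit, Gabra4 joins Gabrd in extrasynaptic receptors, and Gabra5 forms receptors with tonic activity in several forebrain areas. B6 mice are known to carry a small intronic deletion next to a splice acceptor of Gabra2 that lowers its expression, which most other strains, D2 included, do not carry.

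Gabra2 (ENSMUSG00000000560) lies on the minus strand at chr5:71114573-71253662 of GRCm39. A splice acceptor is the intron end that precedes an exon, usually a run of pyrimidines (C and T) followed by AG. Because the known B6 allele concerns such a site, the last 25 intron bases before each exon of the 4 genes were read from the genome, in which B6 is the reference strain. Gabra2 had 9 acceptors, whose 20 bases before AG held between 10 and 19 pyrimidines with a median of 15, also the median of 187597 acceptors of protein-coding genes. The acceptor of Gabra2 exon 5 had the fewest pyrimidines of any in the 4 genes. It is shown with the acceptor of the 221-base exon of the same length in each other gene and with that of Gabra2 exon 9, for contrast. These were picked after their counts were seen. Sequences run 5′ to 3′ on the transcribed strand, with C and T in capitals and the intron's final ag at the end:
Gabra2 exon 5, chr5:71171980-71172004: aaaggaaTTgTaaaTTTaTaTTTag
Gabra2 exon 9, chr5:71130971-71130995: TTCTTTCCTgTCTCTTCTTTTaCag
Gabra3 exon 5, chrX:71544906-71544930: TTCTTTCTTgCTCTCTCTgTTCTag
Gabra4 exon 4, chr5:71798627-71798651: CCCaTgaCTTgaCTaCTTTCCCTag
Gabra5 exon 6, chr7:57138771-57138795: CCCCTgaTgTCTTCTTgTgCaTTag

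The Gabra2 exon 5 acceptor held 10 pyrimidines in its 20 bases, and its longest pyrimidine run was 3. As few or fewer were found at 3306 of the 187597 acceptors, or 1.76%. The acceptors of the same exon in Gabra3, Gabra4 and Gabra5 held 18, 14 and 14, and that of Gabra2 exon 9 held 18. This is a description of the letters in the reference genome. The D2 sequence and the position of the deleted base were not used here, so no difference between the strains is drawn from these windows.

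Library depth ranged from 96977262 to 111468080 counted reads in B6 and from 104443243 to 116776714 in D2. B6 replicates 3 and 5 stood apart from the other B6 mice. Their summed level of 9 cortex projection neuron markers was 1056 and 1069 CPM (counts per 1000000 counts of the TMM-scaled library, which corrects for library depth but not for gene length), against 186 to 278 in the other B6 mice and 321 to 712 in D2. Slc17a7 alone gave 774 and 791 CPM of the sums in replicates 3 and 5. Of the 9 markers, only Lamp5 was lower in these 2 mice (68.6 and 68.5 CPM) than in the other B6 mice. B6 replicates 3 and 5 were also the closest pair of libraries, for which the chi-square per gene averaged 4.89 (15388 genes). Sampling noise gives 1 on this measure, and all other pairs within a strain gave 17.5 to 119. They were therefore kept as 2 mice, and the results are also given without both where that changes a call. In all 10 mice NAc projection neuron markers such as Drd2, Penk and Adora2a were abundant.

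Expression of Gabra2 was higher in D2 than in B6, by 2.04-fold. Gabra5 fell by 21.3% in D2, while Gabra3 and Gabra4 did not pass the test. Hence 1 of the 4 genes was called higher and 1 lower. Of all 29883 genes, 8.5% were called higher in D2 and 9.83% lower, together 18.3%. Calls were made at an adjusted p under 0.05 with the edgeR quasi-likelihood test and Benjamini-Hochberg adjustment over all genes, two-sided.

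Gabra2 counts were 10412, 7934, 7750, 9296 and 8243 in B6 replicates 1 to 5 and 19787, 18438, 19531, 21456 and 17946 in D2. On the CPM scale the B6 mice were at 93.0, 76.0, 82.2, 92.0 and 78.5, and the D2 mice at 168.1, 166.8, 170.8, 186.7 and 169.4. Every D2 mouse lay above every B6 mouse, and the gap between the highest B6 and the lowest D2 mouse was several times the SD within either strain. Group means were 84.4 ± 7.79 and 172.4 ± 8.18 CPM (SD, n = 5 each). The log2 fold change was 1.03 (SE 0.060, 95% interval 0.90 to 1.16), with an edgeR adjusted p of 8.0e-08. The exact permutation test of the CPM difference gave p = 0.0079, the smallest possible with 5 and 5 mice. Strains that did not overlap were found for 16% of all genes, 7.39% with D2 higher and 8.63% with D2 lower. Gabra2 ranked 186 by p among all genes and 212 by fold change among the genes higher in D2 that averaged at least 100 counts. The D2 mouse with the highest level, replicate 4, stood apart from the other D2 mice, which were between 166.8 and 170.8. Without it the log2 fold change was 1.00, and with B6 replicates 3 and 5 left out it was 0.98, both called.

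**Figure D1:**
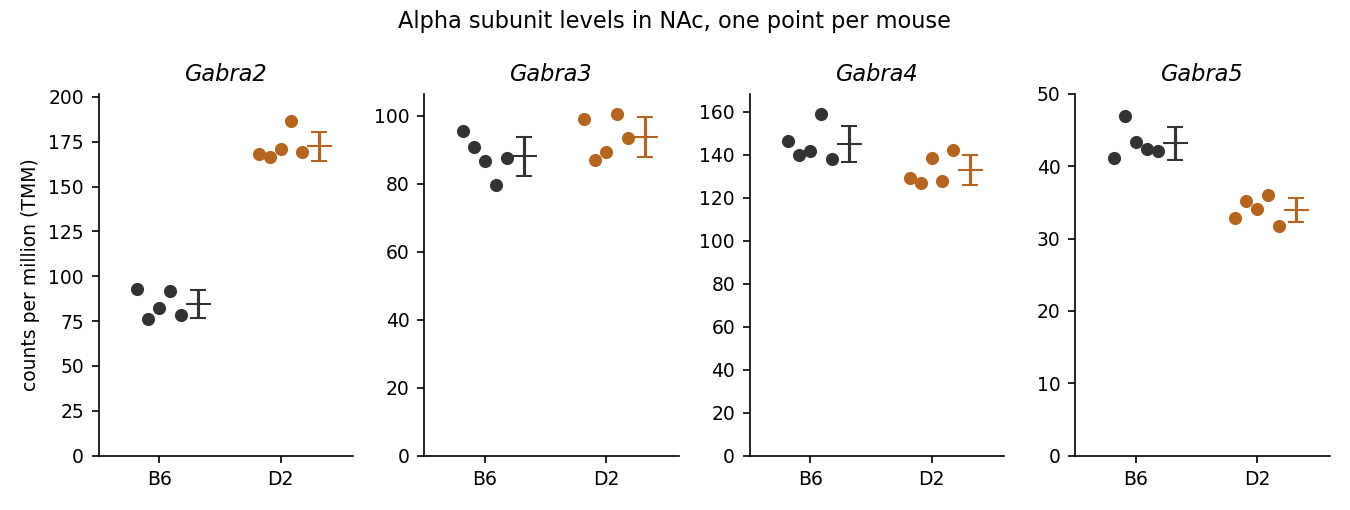
Expression of the 4 alpha subunit genes in NAc in CPM (vertical axes start at 0 and differ in range), 1 point per mouse, 5 B6 (dark) and 5 D2 (orange); bars show mean ± SD. Gabra2 rises from a B6 mean of 84.4 to a D2 mean of 172.4 and Gabra5 falls from 43.2 to 33.99, each without overlap, while the strains overlap for Gabra3 and Gabra4.

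Gabra3 (ENSMUSG00000031343), at chrX:71476275-71700723 on the minus strand, encodes an alpha subunit abundant in cortex, reticular thalamus and monoaminergic nuclei. Its CPM was 95.4, 90.8, 86.6, 79.7 and 87.5 in the B6 mice and 98.9, 86.9, 89.2, 100.4 and 93.3 in the D2 mice. The strains overlapped over most of their range, and the highest B6 mouse exceeded 3 of the D2 mice. Means were 88.0 ± 5.81 and 93.7 ± 5.88 CPM (SD, n = 5 each), from 8048 to 11642 counts per mouse. The log2 fold change of 0.09 (SE 0.053, 95% interval -0.02 to 0.21) did not pass the test, with an edgeR adjusted p of 0.293 and an exact permutation p of 0.167. The interval does not show that the strains are alike.

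Gabra4 (ENSMUSG00000029211) lies at chr5:71721738-71815722 on the minus strand, in the same gene cluster as Gabra2. Its CPM was 146.4, 139.8, 141.7, 158.9 and 138.0 in B6 and 129.4, 127.0, 138.4, 128.0 and 142.2 in D2. D2 replicates 3 and 5 lay within the B6 range and the other 3 D2 mice below it. Means were 145.0 ± 8.42 and 133.0 ± 6.84 CPM (SD, n = 5 each). The log2 fold change was -0.12 (SE 0.047, 95% interval -0.23 to -0.02), with an unadjusted p of 0.0207, an edgeR adjusted p of 0.0909 and an exact permutation p of 0.0556. With B6 replicates 3 and 5 left out, an alternative chosen after the data were seen, it was -0.16 with an adjusted p of 0.0451. In the exact permutation test it also passed without B6 replicate 5 (a difference of -13.7 CPM, p = 0.0397) and without D2 replicate 5 (-14.3 CPM, p = 0.0238). Of 10 striatal projection neuron markers, 6 were called lower in D2, and their part in the Gabra4 difference was not tested. With the mean level of the 10 markers as a covariate, also added after seeing the data, the Gabra4 log2 fold change was -0.0099 (adjusted p = 0.928). Most of these markers differed between the strains themselves, so fits with this covariate, here and below, cannot separate strain from marker level.

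Gabra5 (ENSMUSG00000055078) lies at chr7:57055164-57240831 on the minus strand. The B6 mice were at 41.1, 46.9, 43.4, 42.4 and 42.1 CPM and the D2 mice at 32.8, 35.2, 34.1, 36.0 and 31.8 CPM. All D2 mice were below all B6 mice. Means were 43.2 ± 2.25 and 33.99 ± 1.69 CPM (SD, n = 5 each), and the log2 fold change was -0.35 (SE 0.046, 95% interval -0.44 to -0.25) with an edgeR adjusted p of 1.3e-04. The exact permutation p was 0.0079. In bulk tissue, fewer cells that express a gene and less RNA per cell cannot be told apart, and this holds for each gene here. Gabra5 remained called under all alternatives run, with log2 fold changes between -0.37 and -0.31. With the striatal marker covariate it was -0.37 (adjusted p = 0.0023).

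The differences of Gabra2 and of its relatives were then set against each other within each library, with ratios of raw counts that need no scaling between libraries. Counts of Gabra2 per count of Gabra3 ran from 0.837 to 1.16 in B6 (median 0.950) and from 1.70 to 1.92 in D2 (median 1.86). Relative to Gabra4 they ran from 0.543 to 0.635 in B6 and from 1.19 to 1.46 in D2. Relative to Gabra5 they ran from 1.62 to 2.26 in B6 and from 4.74 to 5.33 in D2. In all 3 ratios the strains did not overlap. D2 exceeded B6 by 1.92-fold, 2.23-fold and 2.60-fold, each with a two-sided exact permutation p of 0.0079 (n = 5 each) before and after Benjamini-Hochberg adjustment over the 3. The strain difference of Gabra2 was thus unequal to that of each of the other 3 genes, beyond the spread between mice. A ratio shows unequal change and not which of its genes changed. The 3 ratios, and the Gabra2 share given below, use the same Gabra2 counts, so they are not independent of its difference above.

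To compare the levels of different genes, CPM was divided by the length of the merged exons in kilobases. In B6 the order of the members was Gabra4 (14.4 ± 0.837 CPM per kb), Gabra3 (12.7 ± 0.841), Gabra2 (9.41 ± 0.869) and Gabra5 (4.79 ± 0.249) (SD, n = 5). In D2 it was Gabra2 (19.2 ± 0.912), Gabra3 (13.6 ± 0.851), Gabra4 (13.2 ± 0.680) and Gabra5 (3.77 ± 0.188). Gabra2 thus stood below Gabra4 and Gabra3 in every B6 mouse and above both in every D2 mouse. Gabra3 and Gabra4 overlapped in either strain and were not told apart, and the other neighbours in the order did not overlap. Gabra6, the alpha subunit of cerebellar granule cells, had 0 to 6 counts per mouse.

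As a share of the reads per kb of Gabra2 to Gabra6 together, Gabra2 made up 23.9, 20.8, 22.6, 24.3 and 21.999% in the B6 mice and 37.8, 39.0, 38.5, 39.99 and 37.7% in the D2 mice. The strains did not overlap. B6 mice averaged a share of 22.7 ± 1.42% and D2 mice one of 38.6 ± 0.930% (SD, n = 5 each), a difference of 15.9 percentage points with an exact permutation p of 0.0079. With the longest transcript in place of merged exons the Gabra2 shares were 17.98% and 32.004%. In D2 that put Gabra2 close to Gabra4, which then had 31.2%. Shares add up to the whole, so a larger Gabra2 share lowers the others. Gabra3 went from 30.8 ± 2.06 to 27.3 ± 1.15%, Gabra4 from 34.8 ± 1.46 to 26.6 ± 1.52% and Gabra5 from 11.6 ± 0.845 to 7.58 ± 0.422%. Gabra3 to Gabra6 summed to 31.9 ± 0.739 CPM per kb in B6 (31.04 to 32.95) and 30.6 ± 0.874 in D2 (29.1 to 31.3), and the 2 ranges overlapped. With Gabra2 included, the sums were 41.4 ± 1.43 CPM per kb in B6 and 49.8 ± 1.56 in D2.

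**Figure D2:**
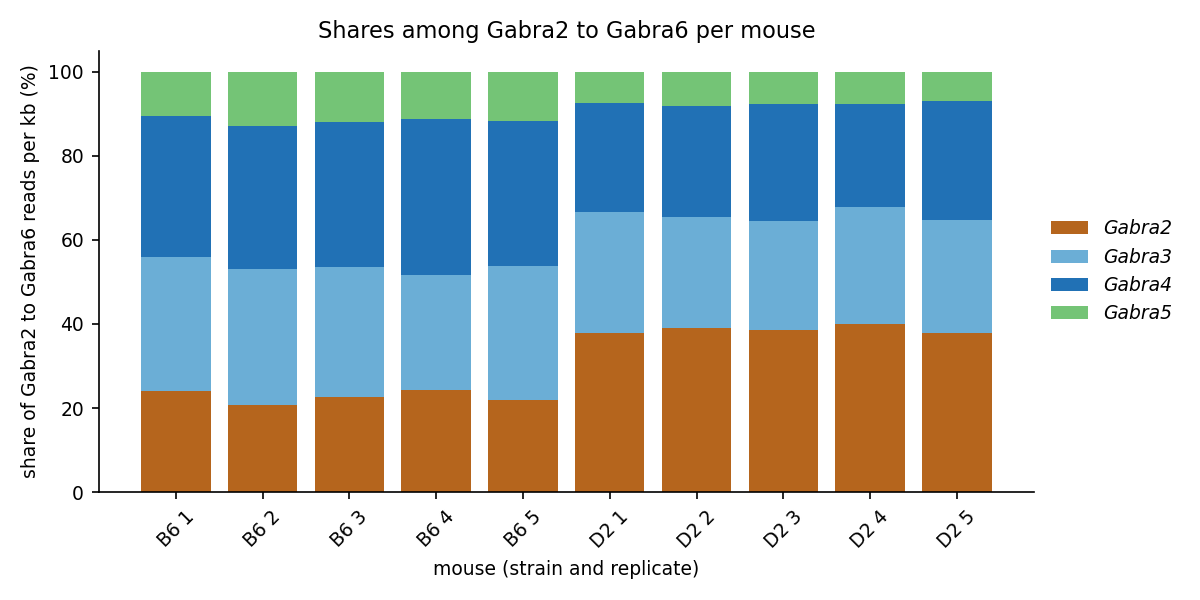
Share (%) of each gene in the reads per kb of merged exon of Gabra2 to Gabra6, stacked for each mouse, 5 B6 and 5 D2. Gabra6 is at most 0.0495% and not drawn. The Gabra2 band (orange) spans 20.8 to 24.3% in B6 and 37.7 to 39.99% in D2.

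Among 12 other GABA-A receptor subunit genes, none was called higher in D2, 2 were called lower, and 10 did not pass, so 16.7% were called against 18.3% of all genes. Their median log2 fold change was 0.23, against 0.00 over all genes. Before adjustment, Gabrb1, Gabrg3 and the near-absent Gabrp had a p under 0.05 with D2 higher. DESeq2 called 1 of the 12 higher, and edgeR with the cortex marker level as a covariate called 6 higher (Gabrb1, Gabrb2, Gabrg1, Gabrg3, Gabre and Gabrq). Beta subunits form the GABA site together with alpha. Gabrb1, the neighbour of Gabra4, had a log2 fold change of 0.13 (edgeR adjusted p = 0.139), and Gabrb2 one of 0.23 (adjusted p = 0.176). Gabrb1 was called without B6 replicate 1 (0.17) and Gabrb2 without D2 replicate 2 (0.30).

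Gamma subunits bring receptors to synapses, while delta replaces gamma in extrasynaptic receptors. Gabrd, the partner of Gabra4, fell by 0.22 on the log2 scale (SE 0.068, edgeR adjusted p = 0.0358), from 108.3 ± 6.59 to 92.7 ± 9.74 CPM, with strains that overlapped. It lost its call with total-count scaling (-0.19, adjusted p = 0.0589), without B6 replicates 3 and 5 (-0.21, adjusted p = 0.0769), with the striatal marker covariate (-0.15, adjusted p = 0.314), and when any of 6 single mice was left out. Gabrg1 was at 0.24 (adjusted p = 0.240) and Gabrg3 at 0.23 (adjusted p = 0.0704), and both were called with the cortex marker covariate (0.35, adjusted p = 6.9e-04, and 0.25, adjusted p = 0.0149). Gabrg1 was at 0.15 without B6 replicate 5 and at 0.05 without B6 replicates 3 and 5. Gabrg3 was called by DESeq2 (0.23, adjusted p = 0.0433), and without B6 replicate 1 or D2 replicate 3 also by edgeR (0.28 and 0.27).

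The less common epsilon, theta, pi and rho subunits had low counts. Gabrq (theta) was at 1.68 and 1.52 CPM in B6 replicates 3 and 5 and at 10.5 to 17.4 in the other B6 mice, against 7.09 to 17.3 in D2. Gabre (epsilon) was at 0.711 and 0.676 CPM in those 2 mice and at 2.68 to 4.39 in the other B6 mice. Their log2 fold changes of 0.35 and 0.38 (adjusted p = 0.751 and 0.654) turned to -0.28 and -0.18 without the 2 mice. With the cortex marker level as a covariate they became 1.37 and 1.09, both called (adjusted p = 0.0027 and 0.0047). Gabrr2 (rho) fell by 0.97 on the log2 scale (SE 0.160, edgeR adjusted p = 8.1e-04), from 57 to 76 counts per mouse in B6 to 29 to 45 in D2. Gabrp, Gabrr1 and Gabrr3 had at most 19 counts in any mouse.

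**Figure D3:**
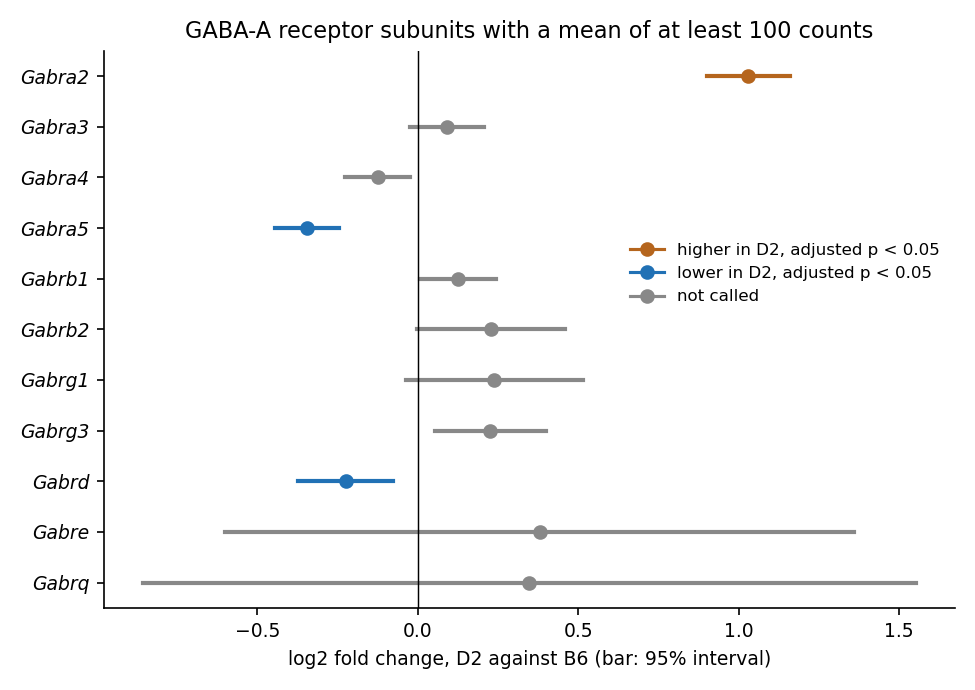
Log2 fold change of D2 against B6 for GABA-A receptor subunit genes that averaged at least 100 counts, with 95% intervals; orange, called higher in D2; blue, called lower; grey, not called. Gabra2 at 1.03 lies beyond the intervals of all others but Gabre and Gabrq, for which B6 replicates 3 and 5 stood apart.

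The proteins that anchor and traffic these receptors showed few calls. Of 14 genes for inhibitory synapse scaffolds and adhesion, none was called higher and 2 lower, with a median log2 fold change of -0.02. These were Insyn1, a postsynaptic inhibitory scaffold protein (-0.26, SE 0.080, edgeR adjusted p = 0.0432), and Dag1, dystroglycan (-0.08, SE 0.026, adjusted p = 0.0435). Insyn1 was highest in B6 replicates 3 and 5, at 194.7 and 196.3 CPM against 142.2 to 160.7 in the other B6 mice. None of 15 receptor trafficking genes was called in either direction (median -0.03). Of 6 genes for GABA synthesis and uptake, Gad1, a GABA-synthesizing enzyme, was called higher (0.23, SE 0.068, adjusted p = 0.0358; 628.4 ± 54.2 CPM in B6 and 734.8 ± 59.6 in D2). Together 3 of these 35 genes, or 8.57%, were called, against 18.3% of all genes. Leaving out B6 replicate 3 or 5, or any of 3 D2 mice, left 0 of the 35 called higher, and 8 were called higher with the cortex marker covariate. Neither lower call remained without B6 replicate 3, B6 replicate 4 or any single D2 mouse.

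Markers of other cells and regions were counted in the same fit. Of the striatal projection neuron markers none was called higher and 6 were lower (Drd2, Penk, Adora2a, Rgs9, Adcy5 and Pde10a), with a median log2 fold change of -0.27. The direct-pathway markers Drd1 (-0.06, adjusted p = 0.670), Tac1 (-0.02, adjusted p = 0.953) and Pdyn (0.01, adjusted p = 0.963) did not pass, nor did Ppp1r1b (-0.23, adjusted p = 0.0713). Their summed level was 5578 to 6992 CPM in B6 and 4702 to 5607 in D2, so the strains overlapped only slightly, and the 2 lowest B6 mice were replicates 3 and 5. Of 6 oligodendrocyte markers 4 were lower (median -0.35, summed 4293 to 6202 CPM in B6 and 3242 to 4734 in D2). None of the 9 cortex, 7 thalamus and septum, or 5 endothelium and blood markers was called, and no marker was at 0 in all mice. The other lists had 1 of 8 interneuron markers lower (Th), 1 of 6 astrocyte markers higher and 2 lower, 1 of 6 microglia markers higher and 1 lower, and 1 of 5 choroid plexus and ependyma markers lower (Folr1). The share called was 60% for striatal projection neuron and 66.7% for oligodendrocyte markers, against 18.3% of all genes (9.83% lower). It was 50% for astrocyte, 33.3% for microglia, 20% for choroid plexus and ependyma, and 12.5% for interneuron markers. Of all 62 markers, 27.4% were called. The part of these shifts in the subunit differences was not tested as a cause. As measured, the Gabra2 log2 fold change was 1.08 with the striatal marker covariate and 1.04 with the cortex marker covariate, both called.

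**Figure D4:**
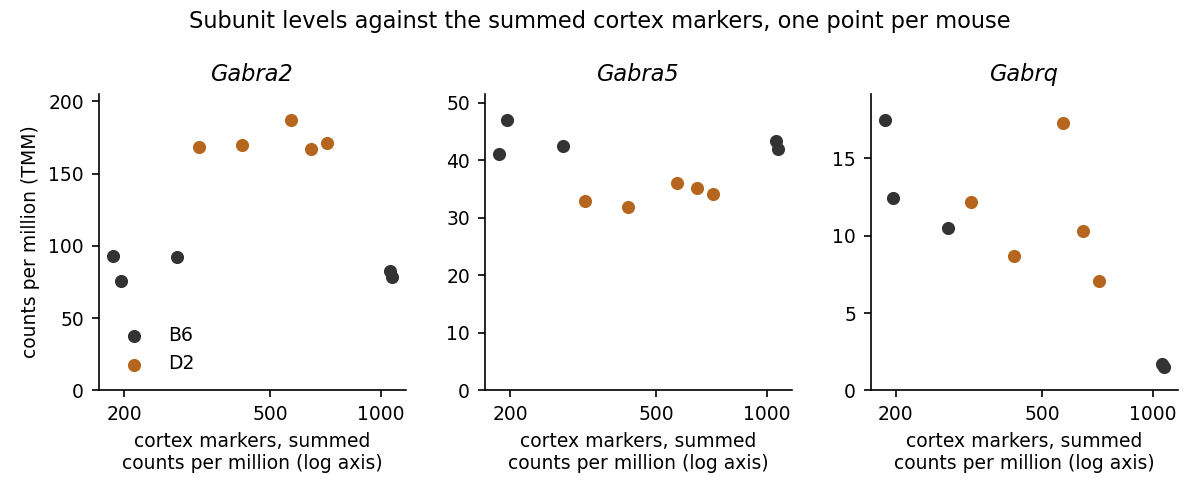
CPM of Gabra2, Gabra5 and Gabrq (vertical axes, each from 0) against the summed CPM of 9 cortex projection neuron markers (horizontal log axis), 1 point per mouse, B6 dark and D2 orange. B6 replicates 3 and 5, at 1056 and 1069, have Gabra2 and Gabra5 levels within the range of the other B6 mice, but Gabrq at 1.68 and 1.52.

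Genes whose start lay within 1 Mb of each member's start were counted to show what surrounded the differences. Around Gabra2 there were 6 genes, and 0 were called by edgeR or by DESeq2. With 18.3% of all genes called, 0 of so few genes does not set this window apart. Within 2 Mb of Gabra2, 4 of 36 genes were called (11.1%), all lower in D2. The 6 uncalled genes within 1 Mb included Gabra4 and Gabrb1, whose starts lay 562 kb upstream of that of Gabra2. Also among these 6 were Gabrg1, 254 kb downstream, and Cox7b2, a cytochrome c oxidase subunit gene. Of the 6, Gabra4, Gabrb1 and the pseudogene Gm15616 had an unadjusted p under 0.05. Gm15616 had 0 to 17 counts per mouse and a log2 fold change of 1.81 (adjusted p = 0.0908). Without B6 replicate 2, 2 of the 6 were called. Around Gabra4 there were 15 genes, of which Gabra2 was called higher and Zar1 (-2.13, SE 0.293) and Slc10a4-ps (-1.51, SE 0.325) lower, both with at most 104 counts in any mouse. The windows of Gabra2 and Gabra4 shared genes.

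Around Gabra3 on chromosome X, 10 of 32 genes were called, or 31.2%, 9 of them higher in D2. The 5 with the largest fold change were Pwwp4-ps, Xlr4c, Xlr3c, Xlr4b and Pnma5. Pwwp4-ps was at 0 counts in every B6 mouse and 1 to 7 in D2, and Xlr4c was at 0 to 2 counts in B6 and 5 to 37 in D2. The Xlr genes are near-identical copies, so their counts are uncertain. With the edgeR filter on low counts, 6 genes were called. Gabra3 lay among them with a log2 fold change of 0.09. Around Gabra5 there were 5 genes, of which edgeR called 0 and DESeq2 2. The 2 with an unadjusted p under 0.05 were Gm44708 (1.27, adjusted p = 0.0572) and Gabrg3. Over all windows, with each gene counted once, 10 of 53 genes were called higher and 3 lower (24.5%, against 18.3% of all genes), and 1 of those 10 was Gabra2 itself, as a neighbour of Gabra4.

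**Figure D5:**
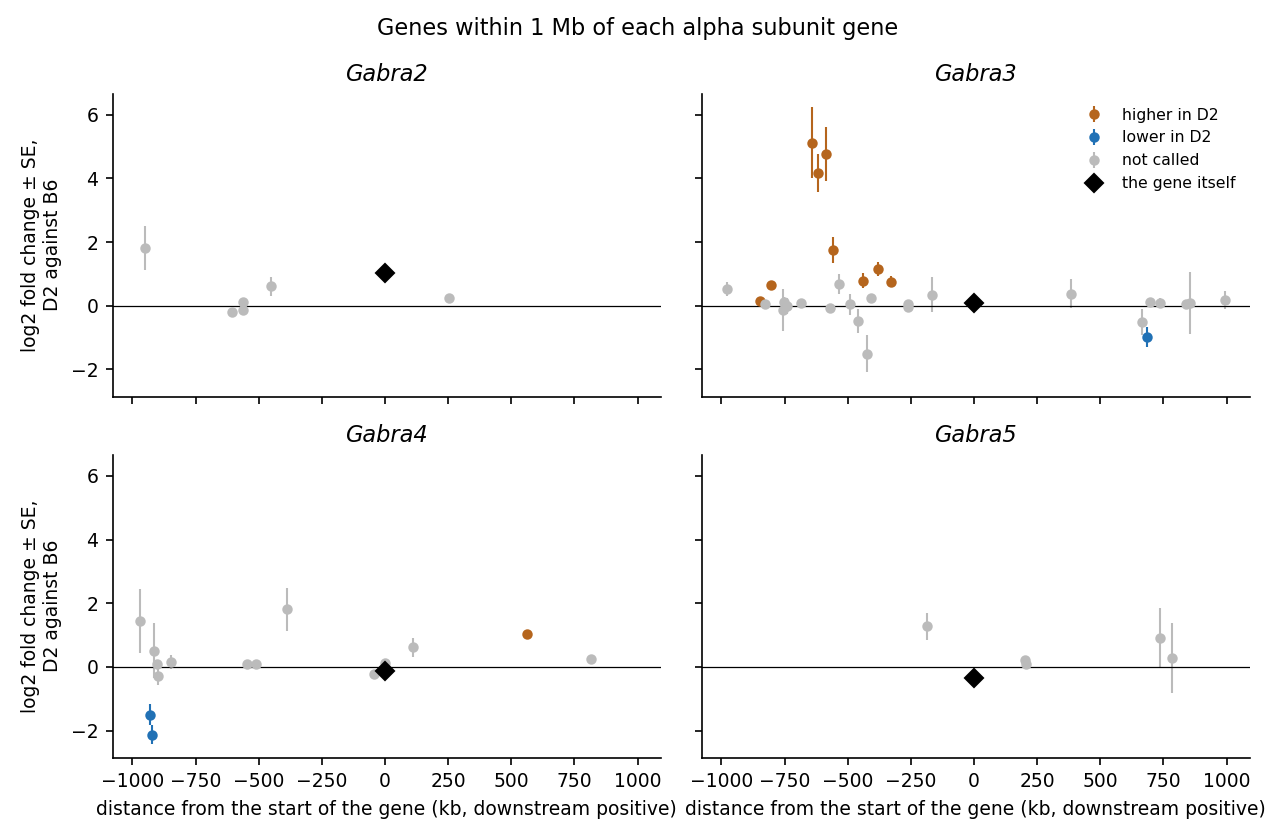
Log2 fold change (± SE) of D2 against B6 for genes within 1 Mb of each member's start, by distance in kb with downstream positive; orange, called higher in D2; blue, called lower; grey, not called; black diamond, the member itself. Gabra2 at 1.03 has no called neighbour among only 6 genes, where 18.3% of all genes were called. Upstream of Gabra3, 9 genes are called higher, and 1 downstream of it is called lower.

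Some exons of the members overlap exons of other genes on the opposite strand, namely Gabra2 with Gm73674 (304 bases, not in the count table), Gabra4 with Gabrb1 (101 bases), and Gabra5 with Gm9962 (148 bases). Whether counting used the strand was not stated, so reads in these stretches cannot be assigned.

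Finally, the genes with the most similar pattern over the 10 mice were found for each member, by Pearson correlation of log2 CPM among 15328 genes that averaged at least 100 counts. For Gabra2 they were the pseudogenes Gm18180 (r = 0.998), Gm7993 (r = 0.995) and Gm10060 (r = 0.994), which were all higher in D2, by 1.95, 5.00 and 1.85 on the log2 scale. For Gabra5 they were Gm45104 (r = 0.980), Ddb2, a DNA damage binding protein (r = 0.979), and Gm10643 (r = 0.972), which were all lower in D2. For both, the 10 points fall into 2 strain groups. Gabra4 was most like Fam98c (r = 0.939), Pde7b, a cAMP phosphodiesterase of striatum (r = 0.925), and Nexn (r = 0.919). Each of these 3 was called lower in D2, with log2 fold changes of -0.14, -0.31 and -0.33. As for the other members, they were picked for likeness over mice of both strains, so a shared direction partly follows from that choice. Gabra3 was most like Slc9a7, a sodium-proton exchanger (r = 0.946), Hus1 (r = 0.940) and Dnajc15 (r = 0.914), and none of the 3 was called.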

How the data were processed

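NAc poly-A RNA from 5 B6 and 5 D2 mice was sequenced, each mouse giving 1 library. Groups and replicate numbers were taken from the labels. The authors trimmed reads with fastp, aligned them with STAR 2.7.10b to Ensembl GRCm39, sorted them with SAMtools 1.6, and deposited raw counts per gene from featureCounts after removing genes with a median of 0. Whether the strand was used is not given in the sources used here. The table held 29883 genes, 29519 of them in the GENCODE annotation of GRCm39 used here for lengths, positions and symbols, and no column was left unmapped.

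Counts were fitted with edgeR 4.0.16 in R 4.3.3 (TMM, quasi-likelihood F test, strain as the factor, all genes). The threshold was a Benjamini-Hochberg adjusted p of 0.05. Each SE equals the size of the log2 fold change over the root of its F statistic. For single values, exact permutation tests over mice (two-sided) went through every assignment of mice to strains (252 for 5 and 5) with NumPy 2.4.6. CPM are counts per 1000000 counts of TMM-scaled library size, and SD is over mice. At these depths (96977262 to 116776714 counts) all 4 members had at least 3369 counts per mouse, so the spread between mice, not counting error, limits precision. Labels give separate mice.

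The members, gene lists and tests were chosen with earlier results of these data known. Genes named are the members, other GABA-A receptor subunits, genes called in the pathway lists (at most 4 per list by fold change) and within 1 Mb of a member (at most 5 each), the 3 most correlated genes per member (log2(CPM + 0.5)), and markers in lists with calls. Alternatives were DESeq2 1.42.0, its size factors, total-count and upper-quartile scaling, the filterByExpr filter, a replicate block, the cortex marker covariate, an adjusted p of 0.01, other lengths and windows, and leaving out each mouse. The fitting procedure was tested on simulated counts. Acceptor sequences came from canonical transcripts on GRCm39. Proteins were not used here. Some genes under this rule are not reported here, and the lists, shares and windows leave them out.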

Additional observations from a re-analysis of the deposited data

Results flagged for a closer look

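In 46 groups of 5 values (levels, count ratios and shares by strain), 1 mouse stood far from the other 4 by Dixon's test in 5. Chance flags about 1 in 20 groups. Gabra2 in D2 replicate 4 was at 186.7 CPM, against 166.8 to 170.8 in the other D2 mice. Among Gabra2 to Gabra6, the Gabra4 share in B6 replicate 4 was 37.3%, against 33.6 to 34.7%, and the Gabra3 share in the same mouse was 27.3%, against 30.9 to 32.3%. Gabrb1 in B6 replicate 1 was at 215.9 CPM, against 179.3 to 189.3. Gabrp in B6 replicate 1 was at 0.00893 CPM, a single read, against 0 in the other B6 mice.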

How the results depend on the processing

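The Gabra2 log2 fold change lay between 0.98 and 1.08 under all 19 alternatives and the Gabra5 change between -0.37 and -0.31, all called; Gabra3 was never called. Gabra4 was called in 1 alternative, without B6 replicates 3 and 5 together (-0.16). Leaving out each mouse gave 1.00 to 1.07, 0.06 to 0.12, -0.15 to -0.09 and -0.37 to -0.31 for Gabra2 to Gabra5, and 84.4 to 90.2, 3.66 to 7.61, -14.3 to -8.47 and -9.72 to -8.27 as CPM differences. It gave 0.89 to 1.01, 1.12 to 1.19 and 1.31 to 1.43 for the log2 ratios of Gabra2 to Gabra3, Gabra4 and Gabra5, and 15.4 to 16.3 points for the Gabra2 share. Gabre and Gabrq turned to -0.18 and -0.28 without B6 replicates 3 and 5. The covariate of striatal markers and the removal of both mice were chosen after seeing the data.

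Genes called higher (2541) and lower (2937) became 1579 and 1836 at an adjusted p of 0.01, 3909 higher with the cortex covariate, and 2115 to 2703 and 2493 to 2973 without each mouse. For the other subunits (0 higher, 2 lower), the cortex covariate gave 6 higher and DESeq2 1 higher, total counts, the striatal covariate and both mice out each 1 lower, and single omissions 0 to 2 and 1 to 2. For the 35 pathway genes (1 higher, 2 lower), total counts gave 2 and 1, the cortex covariate 8 higher, the striatal covariate 5, both mice out 2, and single omissions 0 to 2 each way. For the 62 markers (2 higher, 15 lower), the cortex covariate and both mice out each gave 12 higher, the striatal covariate 9, DESeq2 6, and single omissions 2 to 4 and 11 to 16. Near Gabra2 (0 called), the cortex covariate and a 2 Mb window gave 4, both mice out and the striatal covariate 1, and single omissions 0 to 2. Near Gabra3 (10), filterByExpr gave 6, windows of 0.5 and 2 Mb 3 and 17, and omissions 7 to 12. Near Gabra4 (3), the cortex covariate gave 7, the windows 0 and 9, and omissions 3 to 5. Near Gabra5 (0), the cortex covariate and DESeq2 gave 2, a 2 Mb window 13, and omissions 0 to 1. The causes were not tested.

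Replicate numbers do not pair the mice: correlations of same-numbered deviations were 0.40, -0.44, 0.40, 0.02 and -0.32. With the number as a replicate block, member log2 fold changes were 1.03, 0.09, -0.12 and -0.35, 2 other subunits were called higher (Gabrg1 and Gabrg3), 1 pathway gene was lower, and 1 and 2 genes were called near Gabra2 and Gabra5. The 3 ratios under the block, 0.94, 1.16 and 1.38, had an exact sign-flip p of 0.0625, the smallest 5 pairs allow.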
